A study of Mus musculus with 2 samples.

Results

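Barcodes that carried transcripts of both Foxp3 and Cd8 were examined in single-cell RNA libraries of tumour T cells. These Foxp3/Cd8 barcodes were selected on their own transcripts. A barcode counted with at least 1 Foxp3 unique molecular identifier (UMI), at least 2 Cd8a and Cd8b1 UMIs together, fewer than 10 UMIs of the MHC class II genes H2-Aa, H2-Ab1 and H2-Eb1, and under 500 CPM of the keratins Krt8 and Krt18, where CPM are the UMIs of a gene among 1000000 UMIs of the barcode or of the barcodes summed. The rule found 353 of 3468 kept barcodes of female tumours (10.2%, 95% interval 9.19 to 11.2), 416 of 3519 of male tumours (11.8%, interval 10.8 to 12.9) and 769 of 6987 in all. A barcode was kept from 500 detected genes up, if mitochondrial genes gave no more than 10% of its UMIs. Apart from the Foxp3 and Cd8 UMIs that chose them, nearly all carried the T cell receptor complex gene Cd3e, in 352 of 353 female and 416 of 416 male barcodes.

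Foxp3 is the transcription factor that defines regulatory T cells (Treg cells), which restrain immune responses and in tumours often carry the chemokine receptor Ccr8. Cd8a and Cd8b1 encode the chains of the CD8 coreceptor of cytotoxic T cells, while Treg cells are normally of the CD4 lineage. A T cell usually uses 1 rearranged beta chain of its receptor, so the V segments of that chain (Trbv) give a rough guide to the receptors of a barcode. They are not a count of receptors or cells. A droplet barcode is meant to label 1 cell but can label several cells that entered 1 droplet together.

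The tumours were MB49, a mouse bladder tumour line transplanted into female and male C57BL/6J mice aged 12 to 14 weeks, and were taken on day 14. There was 1 library from female and 1 from male mice, and the labels do not say how many mice each held. No value below therefore has a replicate check, no test was made, and intervals (95%) cover counting error only, which cannot show the spread between mice. The series asks about CD4+ T cell help through CD40L and CD40 in males.

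The labels describe sorted viable CD4+ T cells, but the largest group of kept barcodes carried Cd8. Barcodes with at least 2 Cd8 UMIs and no Foxp3 UMI, called Cd8-only, numbered 2227 in female tumours and 1918 in male tumours, and a Cd4 UMI was seen in 4.98% and 3.49% of them. Barcodes with at least 2 Foxp3 UMIs and no Cd8 UMI, called Foxp3-only, numbered 193 in female tumours and 285 in male tumours, and 66.3% and 59.6% of them had a Cd4 UMI. Both kinds met the same MHC class II and keratin limits. The deposited files held 55880364 UMIs over 3658 barcodes in female tumours and 50946624 over 3708 in male tumours. The libraries shared 16 barcode sequences, carried by 2 female and 0 male Foxp3/Cd8 barcodes.

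Foxp3/Cd8 barcodes made up most barcodes with Foxp3. Of the barcodes within the limits that had a Foxp3 UMI, 58.7% in the female library (353 of 601) and 53.7% in the male library (416 of 775) also had at least 2 Cd8 UMIs. Of those with at least 2 Cd8 UMIs, 13.7% in female tumours and 17.8% in the male library had a Foxp3 UMI. The genes of the rule lie on chromosome X at 7573644 to 7595245 (Foxp3, plus strand) and on chromosome 6 at 71373427 to 71379173 (Cd8a, plus strand) and 71322788 to 71337494 (Cd8b1, plus strand) in GRCm38.

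The values that chose the barcodes were low for Foxp3 and high for Cd8. Foxp3 had a median of 4 UMIs per Foxp3/Cd8 barcode in both libraries, between 1 and 23 in female tumours and 1 and 30 in male tumours. Cd8a and Cd8b1 together had medians of 42 and 45 UMIs, between 2 and 169 in female tumours and 2 and 148 in male tumours. At the edge of the rule, 73 female and 68 male barcodes held exactly 1 Foxp3 UMI, while only 8 and 7 held exactly 2 Cd8 UMIs. Just outside it, 20 female and 25 male barcodes with Foxp3 had 1 Cd8 UMI. The MHC class II limit removed 21 female and 48 male barcodes that met the other limits on Foxp3 and Cd8, and the keratin limit removed 1 more female and 0 male barcodes.

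Free RNA in droplets can add a UMI of a gene that a cell does not express, and 39 female and 32 male barcodes with at least 500 keratin CPM were set beside the others. A keratin barcode can also hold a T cell, and the source of its UMIs was not tested. A Foxp3 UMI was seen in 3 of 39 female (7.69%, 1.62 to 20.9) and 3 of 32 male keratin barcodes (9.38%, 1.98 to 25). A barcode with Cd8 needs only 1 Foxp3 UMI to meet the rule. The shares of barcodes with at least 2 Cd8 UMIs that had one, 13.7% and 17.8%, lie within these intervals. A Cd8 UMI was seen in 7 of 39 and 3 of 32 keratin barcodes. Both Foxp3 and at least 2 Cd8 UMIs were met by 1 of 39 female (2.56%, 0.0649 to 13.5) and 0 of 32 male keratin barcodes (an upper bound of 10.9%). Foxp3/Cd8 barcodes had medians of 33688 and 33520 UMIs, against 53084 and 36460.5 in these keratin barcodes.

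The Foxp3/Cd8 barcodes were deeper than both kinds of single barcode. Their median of 33688 UMIs in the female library stood against 6657 in Foxp3-only and 10458 in Cd8-only barcodes, and their median of 33520 in the male library against 6298 and 8755. Adding every Foxp3-only barcode to every Cd8-only barcode of the same library, 429811 pair sums in female tumours and 546630 in male tumours, gave medians of only 18668 and 16138.5 UMIs. The median of the Foxp3/Cd8 barcodes was thus 1.8 times that of the pair sums in female tumours and 2.08 times in the male library, and 15.4% and 11.2% of pair sums reached it. No Foxp3-only barcode exceeded 37456 UMIs in the female or 35700 in the male library, and 151 female (42.8%) and 197 male (47.4%) Foxp3/Cd8 barcodes did.

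**Figure D1:**
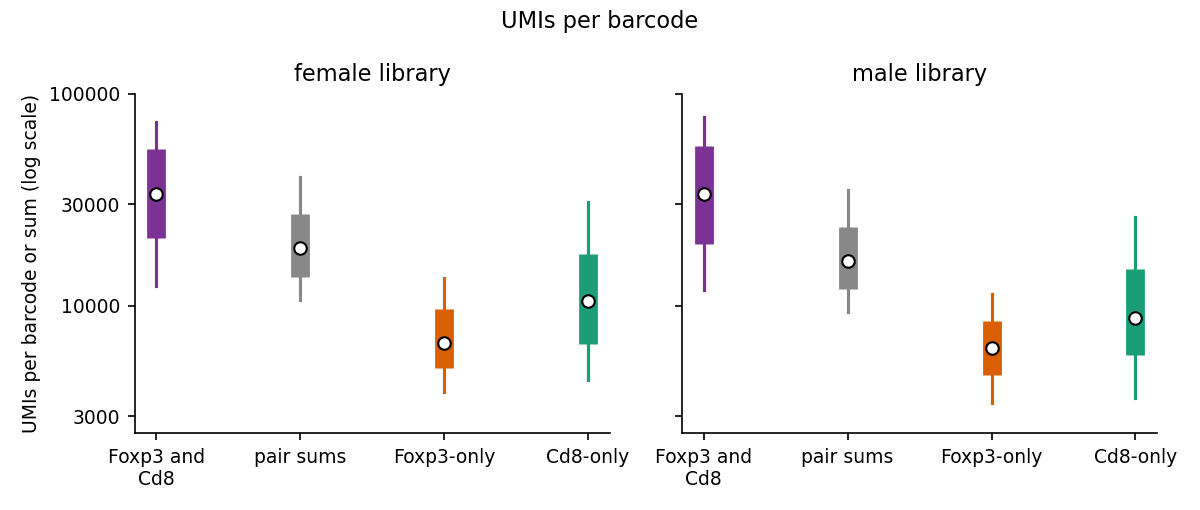
UMIs per barcode or per sum on a log axis, for Foxp3/Cd8 barcodes, all pair sums of 1 Foxp3-only and 1 Cd8-only barcode, Foxp3-only barcodes and Cd8-only barcodes in each library. The circle is the median, the thick bar the middle 50% and the thin line the 10th to 90th percentile of barcodes. Foxp3/Cd8 barcodes have medians of 33688 and 33520 UMIs, above the pair sums at 18668 and 16138.5.

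A rule that asks for UMIs of several genes finds more members among deep barcodes, and the share of members climbed with depth. Foxp3-only barcodes must lack Cd8 UMIs and Cd8-only barcodes Foxp3 UMIs, so the selection also tends to take deep barcodes out of both kinds. Among Foxp3/Cd8 and Cd8-only barcodes together, Foxp3/Cd8 barcodes were 2.13% under 10000 UMIs, 8.09% from 10000, 28.3% from 20000 and 51.9% from 40000 UMIs in the female library. The same shares in the male library were 2.48%, 13%, 38% and 70.5%. When each kept barcode with at least 2977 UMIs was thinned to that depth, the exact mean share that met the rule was 2.99% in female tumours and 3.96% in the male library. Thinning left out 1 female and 0 male Foxp3/Cd8 barcodes, 8 and 18 Foxp3-only and 86 and 135 Cd8-only barcodes.

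Most Foxp3/Cd8 barcodes held several Trbv segments. A segment was counted from 2 UMIs, over the 35 Trbv segments of the files. In the female library 83.9% of Foxp3/Cd8 barcodes (79.6 to 87.5) had at least 2 segments, against 18.7% of Foxp3-only and 38% of Cd8-only barcodes and 82.8% of pair sums. In the male library 84.4% (80.5 to 87.7) did, against 14.4% of Foxp3-only and 34.9% of Cd8-only barcodes and 75.5% of pair sums. The share was close to that of pair sums in female tumours, above it in male tumours, and well above either kind alone in both.

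At least 3 segments were more common in Foxp3/Cd8 barcodes than in pair sums. They were seen in 64.3% of female and 63.7% of male Foxp3/Cd8 barcodes, against 41.2% of female and 34.3% of male pair sums. Among single barcodes they were seen in 0.518% of female and 1.75% of male Foxp3-only barcodes and in 12.8% and 9.8% of Cd8-only barcodes. The most segments in 1 Foxp3/Cd8 barcode were 11 in female tumours and 12 in male tumours, and 71 female and 94 male barcodes had 6 or more. At the other end, 57 female and 65 male barcodes had at most 1 segment.

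Depth moved with the segments, so they were also set side by side within ranges of UMIs. From 20000 to 40000 UMIs, at least 2 segments were seen in 89.1% of female Foxp3/Cd8 barcodes (82.5 to 93.9) and in 65.7% of Cd8-only barcodes (60.3 to 70.9). In the male library the shares in that range were 87.1% (80.4 to 92.2) and 65.4% (58.8 to 71.5). Under 10000 UMIs the intervals overlapped, with 17.4% of 23 Foxp3/Cd8 and 20.1% of 1056 Cd8-only barcodes in the female library, and 28.6% of 28 and 19.8% of 1099 in the male library. From 40000 UMIs all 170 male and 135 of 138 female Foxp3/Cd8 barcodes had at least 2 segments, against 65 of 71 male and 112 of 128 female Cd8-only barcodes. Keratin barcodes, with 24 female and 15 male ones in that range, had at least 2 segments in 4 and 0 barcodes.

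**Figure D2:**
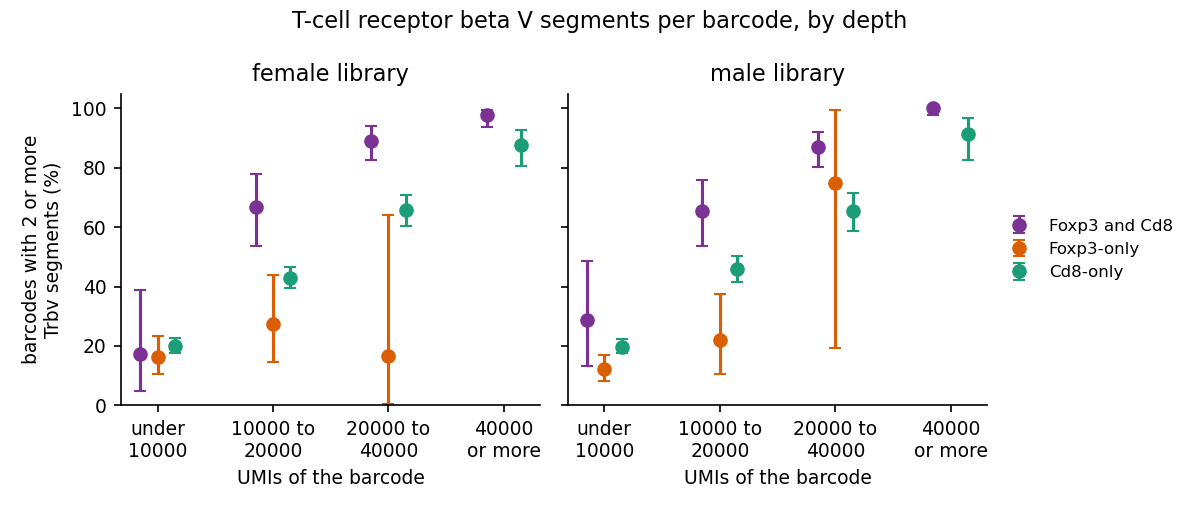
Share of barcodes with at least 2 Trbv segments, in percent, by the UMIs of the barcode, for Foxp3/Cd8, Foxp3-only and Cd8-only barcodes in each library. Points are shares and bars are exact 95% binomial intervals. From 10000 UMIs on, Foxp3/Cd8 barcodes lie above Cd8-only barcodes in both libraries. The Foxp3-only point from 20000 to 40000 UMIs rests on 6 female and 4 male barcodes.

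In depth and receptor segments, the Foxp3/Cd8 barcodes matched sums of 1 Foxp3-only and several Cd8-only barcodes more nearly than sums with 1. The selection gathers deep barcodes in Foxp3/Cd8 barcodes and takes them out of both single kinds, so this match is partly set in advance. It gives no number of cells per barcode. The female Foxp3/Cd8 barcodes averaged 39078 UMIs, 3.58 segments, 4.67 Foxp3 UMIs and 47.7 Cd8 UMIs. Sums of 1 Foxp3-only and 2 Cd8-only barcodes averaged 37795 UMIs, 3.8 segments, 5.29 Foxp3 UMIs and 48.2 Cd8 UMIs, and sums with 1 Cd8-only barcode 22949 UMIs, 2.49 segments and 24.1 Cd8 UMIs. All are exact means over every possible sum within the library, and Foxp3 and Cd8 UMIs, which the rule used, are given as a description.

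The male barcodes lay between sums with 2 and with 3 Cd8-only barcodes. They averaged 40151 UMIs, 3.74 segments, 5.25 Foxp3 UMIs and 49.8 Cd8 UMIs. Sums with 2 Cd8-only barcodes averaged 32330 UMIs, 3.45 segments, 5.27 Foxp3 UMIs and 40.4 Cd8 UMIs, and sums with 3 averaged 44845 UMIs, 4.51 segments and 60.5 Cd8 UMIs. No doublet caller was applied, and whether a barcode held 1 cell or several was not tested. Sums of average barcodes do not stand for deep single cells, which are few among Foxp3-only barcodes (6 female and 4 male ones from 20000 UMIs).

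**Figure D3:**
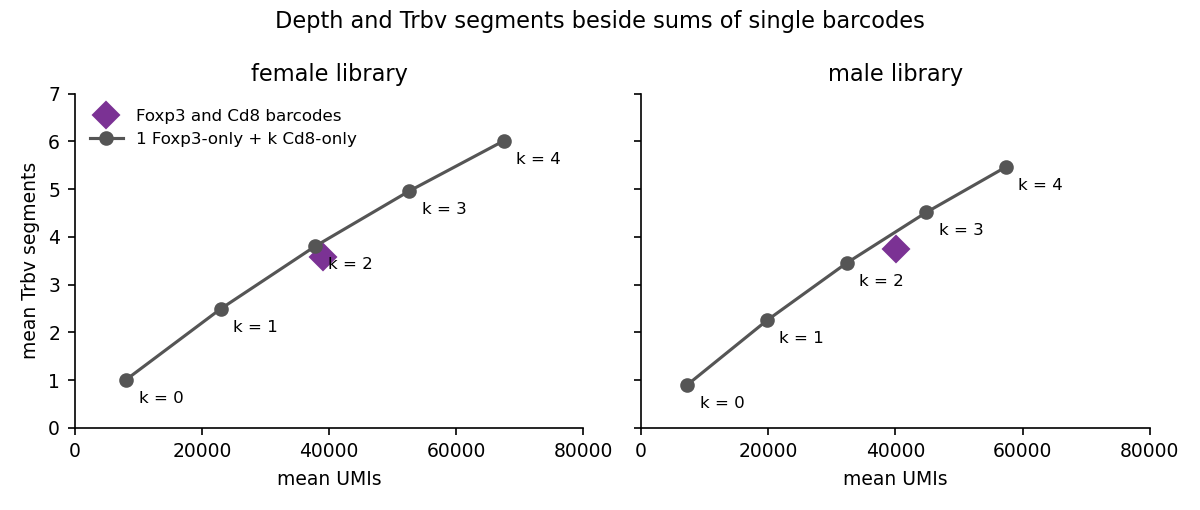
Mean Trbv segments against mean UMIs for Foxp3/Cd8 barcodes (diamond) and for sums of 1 Foxp3-only and k Cd8-only barcodes (circles, k from 0 to 4) in each library. The female diamond (39078 UMIs, 3.58 segments) lies beside k = 2 (37795 and 3.8), and the male diamond (40151 and 3.74) between k = 2 and k = 3.

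Across genes that separate the kinds, Foxp3/Cd8 barcodes lay nearer to Cd8-only than to Foxp3-only barcodes. A place of 0 means the level of Cd8-only and 1 that of Foxp3-only barcodes, in CPM, over genes at least 3-fold apart between the kinds with at least 20 CPM in the higher kind. The median place was 0.20 over 393 genes in female tumours and 0.19 over 460 genes in the male library. Foxp3-only barcodes supplied 35.3% of the UMIs of pair sums in female tumours and 36.8% in the male library, and 21.4% and 22.6% of sums with 2 Cd8-only barcodes. The level lay between the kinds for 96.2% of the genes in female tumours and 87% in male tumours, and beyond the Foxp3-only level for 0 genes in either. In male tumours 57 of 182 Cd8-high genes lay beyond the Cd8-only level.

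Gene levels were then set against pair sums, as log2 of Foxp3/Cd8 barcodes over pair sums, over 7969 measured genes. The median over all genes was -0.03 in female tumours and -0.04 in the male library. Genes past 1.5-fold on the higher side numbered 56 (0.703%) in the female library, 136 (1.71%) in the male one and 32 (0.402%) in both. On the lower side they numbered 192 (2.41%) in the female library, 242 (3.04%) in the male one and 102 (1.28%) in both. Against sums with 2 Cd8-only barcodes, a comparison added after these values were seen, 2 genes (0.0251%) were higher and 40 (0.502%) lower in both libraries. The list counts past 1.5-fold below stand beside these shares of all genes. Counts above or below 0 stand beside the medians of all genes, which put no more genes above 0 than below it. The exact share of all genes above 0 is not given here.

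**Figure D4:**
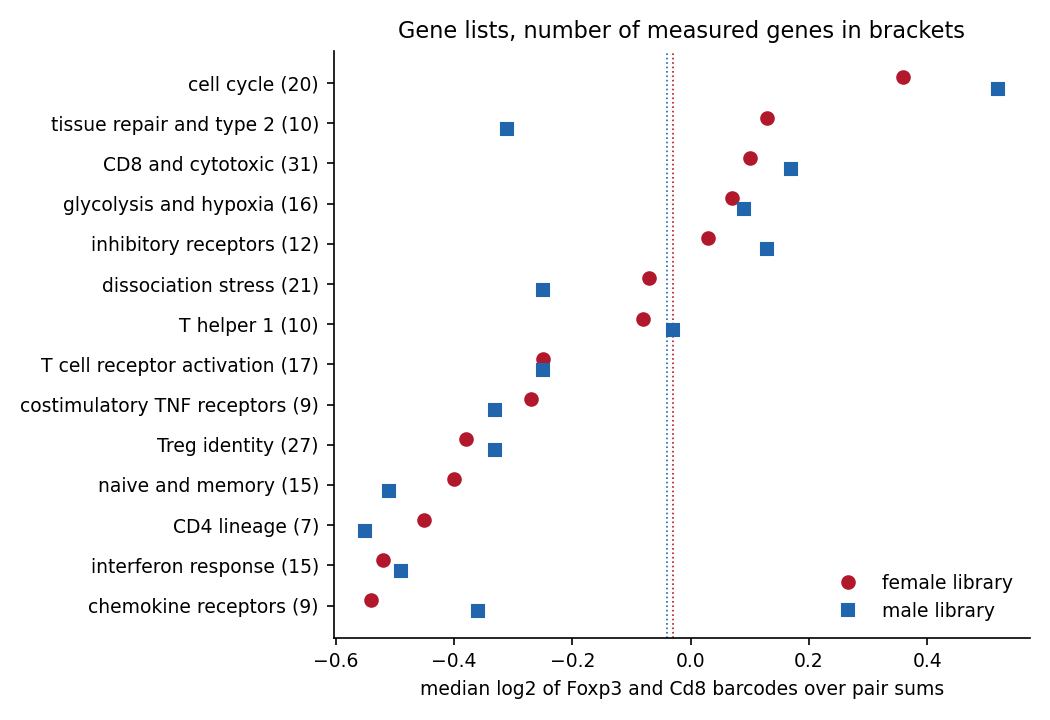
Median log2 of Foxp3/Cd8 barcodes over pair sums for each gene list with at least 3 measured genes other than the markers of other cell types, in female tumours (circles) and the male library (squares). Dotted lines mark the median of all measured genes, -0.03 and -0.04. Of the lists shown, cell cycle genes lie highest at 0.36 and 0.52, and interferon response genes lie at -0.52 and -0.49.

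Genes of Treg identity were lower than in pair sums, though well above Cd8-only barcodes. Of 27 measured genes, 7 were at least 1.5-fold lower in female tumours and 6 in male tumours, 5 of them in both, and 0 were higher. Their median log2 was -0.38 in female tumours and -0.33 in the male library. Together they had 6244.3 CPM in female Foxp3/Cd8 barcodes, against 7933.5 in pair sums, 15899.3 in Foxp3-only and 3586.3 in Cd8-only barcodes. The male values were 6257.4 against 7996.2, 16139.5 and 3247.5. Per barcode the list had 244 UMIs in female Foxp3/Cd8 and 129 in Foxp3-only barcodes, and 251 and 118 in the male library. Against sums with 2 Cd8-only barcodes the median was 0.00 in female tumours and 0.03 in the male library.

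The single Treg genes given here lay below pair sums in both libraries. Ccr8, at 120092114 to 120094906 on chromosome 9, had 132 CPM in female Foxp3/Cd8 barcodes against 159 in pair sums (log2 -0.27, interval -0.38 to -0.15), and 131 against 176 in the male library (-0.42, -0.52 to -0.32). Ikzf2, which encodes the Treg factor Helios, had 353 against 413 in female tumours and 321 against 438 in male tumours. Klrg1, a receptor of highly differentiated Treg cells, had 107 against 183 (-0.78) and 109 against 171 (-0.66). Itgae, the CD103 integrin chain, had 46.5 against 79.5 (-0.77) and 51.1 against 104 (-1.03), and Lrrc32, the anchor of latent TGF-beta, was lower by similar amounts (-0.77 and -0.90). The chemokine receptor Ccr4 was the furthest apart, with 4.86 against 20.7 in female tumours (-2.09) and 4.79 against 15.8 in the male library (-1.72).

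Genes of the CD4 lineage lay below pair sums, mostly by less than 1.5-fold, and Cd4 itself was present. All 7 measured genes lay below 0 in both libraries, with medians of -0.45 and -0.55, and 0 in female and 2 in male tumours were at least 1.5-fold lower, 0 of them in both. Cd4, at 124864692 to 124888221 on chromosome 6 (minus strand), had 44.4 CPM in female Foxp3/Cd8 barcodes against 64.9 in pair sums (-0.55, -0.75 to -0.35) and 49.2 against 71.9 in the male library (-0.55, -0.72 to -0.38). A Cd4 UMI was seen in 237 female (67.1%) and 288 male (69.2%) Foxp3/Cd8 barcodes, and 5.13% of female and 3.12% of male keratin barcodes. Every possible sum of 1 Foxp3-only and 2 Cd8-only barcodes had one in 69.6% in female tumours and 62.4% in the male library. After thinning to 2977 UMIs, Cd4 was seen in 14.3% of female Foxp3/Cd8 and 38.8% of Foxp3-only barcodes, and in 15.4% and 38.3% in the male library.

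Cytotoxic genes were slightly higher than in pair sums. Of 31 measured genes of the CD8 and cytotoxic list, 21 lay above 0 in female tumours and 25 in male tumours, with 1 and 5 at least 1.5-fold higher and medians of 0.10 and 0.17. Against sums with 2 Cd8-only barcodes the medians were -0.13 and 0.05, so the female direction turned. Prf1, which encodes the pore-forming protein perforin, had 353 CPM in female Foxp3/Cd8 barcodes against 263 in pair sums (0.43) and 419 against 259 in the male library (0.69). The granule gene Nkg7 had 2004.3 against 1695.7 (0.24) and 2022.6 against 1549.7 (0.38). Gzmc, which encodes granzyme C, was at least 1.5-fold higher in both, with 254 against 156 in female tumours (0.70, 0.64 to 0.76) and 444 against 214 in the male library (1.05). The granzyme genes of this cluster are close copies, so UMIs could be split among them. Gzmb, carried by both kinds here, was near pair sums, with 2416.8 against 2463.5 and 2580.6 against 2446.2. Cd7 went the other way, with 33 against 59.1 (-0.84) and 38.8 against 80.5 (-1.05).

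Genes of cell division were higher. All 20 measured cell cycle genes lay above 0 in both libraries, 3 in female tumours and 8 in male tumours at least 1.5-fold, with medians of 0.36 and 0.52. The proliferation marker Mki67 had 134 CPM in female Foxp3/Cd8 barcodes against 86.7 in pair sums (0.63) and 113 against 64.6 in the male library (0.80). Birc5 and Cenpf, needed in mitosis, were higher by 0.61 and 0.63 in female tumours and by 0.71 each in the male library. Among the genes furthest above pair sums were the histone genes Hist1h2ag (0.73 and 0.94) and Hist1h2bj (0.70 and 0.92) and the spindle genes Tpx2 (0.66 and 0.76) and Spc24 (0.66 and 0.69). Histone genes are near-identical copies, so the level of each is uncertain.

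Barcodes with division transcripts were more frequent among Foxp3/Cd8 barcodes, and they were deep. At least 2 UMIs of Mki67 and Top2a together were seen in 58.6% of female Foxp3/Cd8 barcodes, against 13% of Foxp3-only and 21.3% of Cd8-only barcodes. The male shares were 58.7%, 10.2% and 17.1%. Thinned to 2977 UMIs, the shares were 17% in Foxp3/Cd8, 5.21% in Foxp3-only and 8.34% in Cd8-only barcodes of the female library, and 13.5%, 2.68% and 7.01% in the male library. Within Foxp3/Cd8 barcodes the share was 4.35% of 23 barcodes under 10000 UMIs, 17.5%, 55% and 89.9% in the ranges above in the female library, and 3.57%, 17.9%, 56.4% and 88.2% in the male library. The order of the kinds was thus the same after thinning, which cannot tell 1 cell from several in a barcode. At least 1 Mki67 UMI was seen in 55.2% of female and 56.2% of male Foxp3/Cd8 barcodes. Sums with 2 Cd8-only barcodes had one in 48.8% and 44%, and sums with 3 in 60.6% and 55%. With only the deeper single barcodes in the sums, the medians of the cell cycle list were 0.05 and 0.19, and 0 genes passed 1.5-fold on the higher side in both libraries. Against all sums with 2 Cd8-only barcodes the male median was 0.35.

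Genes of naive and circulating T cells were lower, and some lay below both kinds of single barcode. In the naive and memory list 7 of 15 measured genes were at least 1.5-fold lower in both libraries, and the medians were -0.40 and -0.51. S1pr1, the receptor that guides T cells out of tissue, had 22.2 CPM in female Foxp3/Cd8 barcodes against 56.2 in pair sums (-1.34, -1.56 to -1.13) and 23.8 against 63.7 in the male library (-1.42, -1.60 to -1.25). Klf2, the factor that drives S1pr1, had 103 against 211 (-1.03) and 220 against 458 (-1.05). Slamf6 and Il6ra, found on less differentiated T cells, were lower by 1.05 and 1.16 on the log2 scale in female tumours and by 0.95 and 1.68 in the male library.

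Of the 7969 genes, 10 (0.125%) lay at least 1.5-fold below the lower kind of single barcode in both libraries. They were Ifi208, S1pr1, Klf3, Cdk8, Pde2a, Klf2, Rflnb, Emb, Klhl6 and Zfp36l2. Both single kinds are shallower, and the part of depth in these values was not tested. With only the deeper single barcodes in the pair sums, genes lower in both libraries numbered 32 rather than 102. S1pr1 had 22.2 CPM in female Foxp3/Cd8 barcodes against 83.8 in Foxp3-only and 41.1 in Cd8-only barcodes, and 23.8 against 66.8 and 61.9 in the male library. Klf2 had 103 against 251 and 188 in the female, and 220 against 432 and 473 in the male library. Zfp36l2, which encodes an RNA-binding protein of quiescent lymphocytes, had 169 against 299 and 289, and 191 against 322 and 352.

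No gene (0%) lay at least 1.5-fold above both kinds in both libraries. In the female library 3 genes did (0.0376%), namely Il13, Il5 and the histone gene Hist1h2ak, and in the male library 9 did (0.113%), namely Fcer1g, Igfbp7, Spp1, Prss2, Tyrobp, Mt3, Lyz2, Ccl6 and Gzmg. Several of these rested on few barcodes. One barcode held 98.5% of the Il13 and 100% of the Il5 UMIs of the female library, 61.2% of the Gzmg and 46% of the Spp1 UMIs of the male library. Igfbp7 was spread more widely, over 138 male barcodes, with 36 CPM against 2.88 in Foxp3-only and 22.5 in Cd8-only barcodes.

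**Figure D5:**
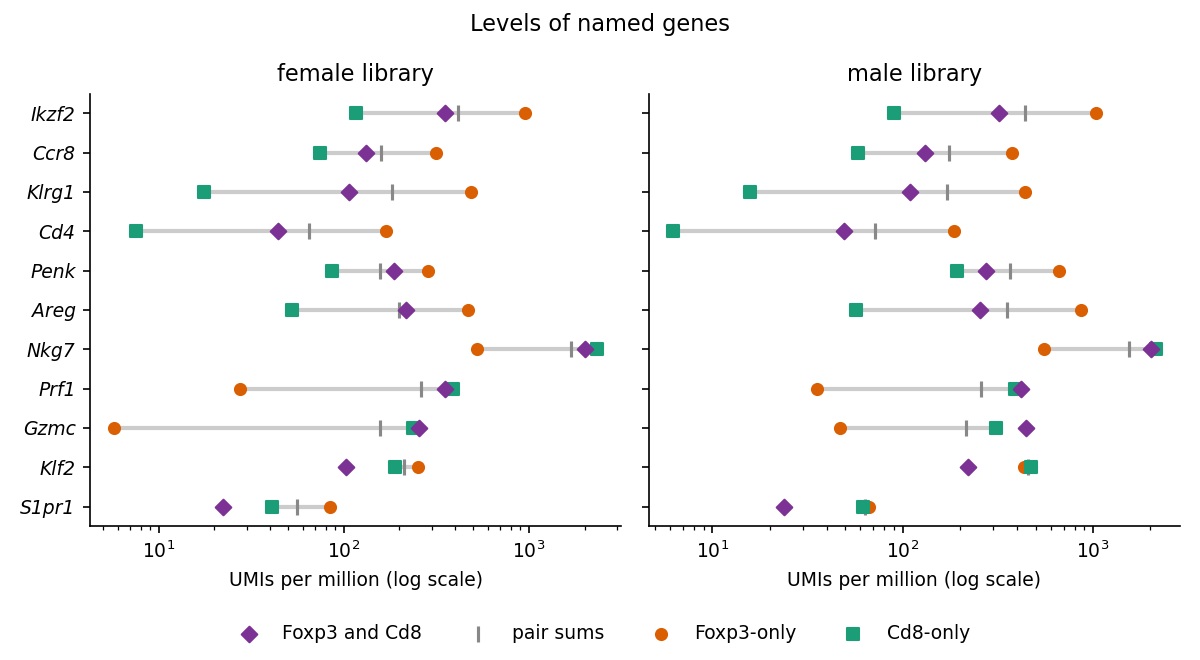
Levels of named genes in CPM (log axis) in Foxp3/Cd8 barcodes (diamonds), pair sums (bars), Foxp3-only (circles) and Cd8-only barcodes (squares), in each library. The grey line joins the levels of both kinds of single barcode. Klf2 and S1pr1 lie below both kinds, and Penk lies above the pair sums in female tumours (186 against 156) and below them in the male library (275 against 366).

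Penk, which encodes the precursor of enkephalin peptides and is transcribed in activated and regulatory T cells, lay between the kinds in both libraries. The gene is at 4133531 to 4138819 on chromosome 4 (minus strand). It had 186 CPM in female Foxp3/Cd8 barcodes against 156 in pair sums (log2 0.25, 0.15 to 0.36), with 284 in Foxp3-only and 86.7 in Cd8-only barcodes. In the male library it had 275 against 366 (-0.41, -0.48 to -0.35), with 661 and 194. Penk in the female library did not keep its direction: with only the deeper single barcodes in the sums it was -0.07, and without dividing barcodes 1.11. The male values under these settings were -0.68 and -0.30.

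Penk was found in many Foxp3/Cd8 barcodes. It was seen in 140 female (39.7%) and 216 male (51.9%) Foxp3/Cd8 barcodes, against 12.4% and 19.6% of Foxp3-only, 11% and 12.2% of Cd8-only, and 5.13% and 0% of keratin barcodes. After thinning to 2977 UMIs the shares were 18.7% and 25.6% in Foxp3/Cd8, 10.7% and 17.2% in Foxp3-only and 5.82% and 7.8% in Cd8-only barcodes. These thinned shares run against the CPM, in which Foxp3-only barcodes were highest, so no order is read from them. For Ccr8 the thinned share of Foxp3/Cd8 barcodes, 31.1% in female tumours and 31% in male tumours, lay between Foxp3-only (41% and 45.3%) and Cd8-only barcodes (13.9% and 11.8%).

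Sums hold more chances of a Penk UMI than 1 barcode does. At least 1 Penk UMI was present in 22% of female and 29.5% of male pair sums, in 30.6% and 38.1% of sums with 2 Cd8-only barcodes, and in 38.2% and 45.6% of sums with 3. The Foxp3/Cd8 shares of 39.7% and 51.9% were above these, and below the 45% and 52.3% of sums with 4. For Areg the Foxp3/Cd8 share in the female library, 57.5%, lay between sums with 3 (55.4%) and with 4 Cd8-only barcodes (59%), and in the male library 65.4% was above sums with 4 (62.9%). UMIs of Penk per barcode that had any were 18.3 in female Foxp3/Cd8 barcodes, 18.5 in Foxp3-only and 11.7 in Cd8-only barcodes, and 21.2, 24.6 and 19.9 in the male library.

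Penk-positive Foxp3/Cd8 barcodes were deeper than the others. A deeper barcode is more likely to hold a Penk UMI, so the split itself favours depth and, with it, more segments. Their median was 40373 UMIs against 28928 without Penk in the female library, and 47836 against 24913.5 in the male library. They averaged 4.44 Trbv segments against 3.01, and 4.54 against 2.88. Their Ccr8 was 137 CPM against 128 in female tumours and 122 against 149 in male tumours. Single barcodes weighed on the gene: 1 barcode held 10% of the female and 13.6% of the male Penk UMIs, and leaving out the top barcode in Foxp3/Cd8 barcodes and in each kind gave log2 0.36 and -0.51.

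Areg, which encodes the tissue repair factor amphiregulin, followed the pattern of Penk. The gene is at 91139599 to 91148432 on chromosome 5. It had 217 CPM in female Foxp3/Cd8 barcodes against 199 in pair sums (0.13, 0.02 to 0.23), with 467 in Foxp3-only and 52.8 in Cd8-only barcodes. In the male library it had 256 against 354 (-0.47, -0.54 to -0.39), with 863 and 56.8. Against sums with 2 Cd8-only barcodes Areg was 0.62 in female tumours and 0.10 in the male library, and Penk 0.53 and -0.12.

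Il5 and Il13 encode cytokines of type 2 immunity, and 1 barcode held nearly all their UMIs in the female Foxp3/Cd8 barcodes. Il5, at 53720794 to 53725106 on chromosome 11, had 246 UMIs in female Foxp3/Cd8 barcodes, all in 1 barcode of 48561 UMIs with 1 Foxp3 UMI, 55 Cd8 UMIs and 6 Trbv segments. The same barcode held 202 of 205 Il13 UMIs, 89 of 93 Il4 UMIs, 91 Areg and 9 Gata3 UMIs, and 0 Penk UMIs. In the male library Il5 had 0 UMIs in Foxp3/Cd8 and in Foxp3-only barcodes and 7 in Cd8-only barcodes, so no ratio is given. Male Il13 had 13 UMIs in 6 Foxp3/Cd8 barcodes, 0.778 CPM against 0.474 in pair sums (log2 0.72, -0.43 to 1.83). Female Cd8-only barcodes had Il5 in 4 and Il13 in 8 of 2227 barcodes, and 0 of 193 Foxp3-only barcodes had either.

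The tissue repair and type 2 list, which holds Penk, Areg, Il5 and Il13, was split. Of 10 measured genes 3 were at least 1.5-fold higher and 2 lower in the female library, and 2 and 2 in the male library, with medians of 0.13 and -0.31. Il5 and Il13 reached the 10 CPM limit only in female Foxp3/Cd8 barcodes, through 1 barcode. Both are among the genes counted higher in the female library. Male Il13 counts as higher on 13 UMIs, with an interval of -0.43 to 1.83. These counts and medians therefore lean partly on 1 female barcode. The female median turned to -0.21 with at least 2 Foxp3 UMIs and to -0.01 without dividing barcodes. Il1rl1, the receptor of interleukin 33 that marks tissue Treg cells, was lower in both, with 13.6 CPM in female Foxp3/Cd8 barcodes against 25.8 in pair sums (log2 -0.92) and 7.66 against 15.3 in the male library. The chemokine receptor Ccr3 was lower by 1.93 and 1.49 on the log2 scale. Csf2, the cytokine GM-CSF, was higher by 0.68 and 0.73, with 36.1% and 32.1% of its UMIs in 1 barcode.

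Genes induced by interferon were mostly lower. All 15 measured genes lay below 0 in female tumours and 14 in male tumours, and 7 female and 5 male values were at least 1.5-fold lower, 4 of them in both. The medians were -0.52 and -0.49. Irf7, a factor that amplifies the interferon response, had 37.6 CPM in female Foxp3/Cd8 barcodes against 64.8 in pair sums (-0.78) and 35.1 against 63.3 in the male library (-0.85). Igtp, an interferon-induced GTPase, had 117 against 190 (-0.71) and 100 against 161 (-0.68). Irgm1, of the same family, was lower by 0.72 and 0.74 on the log2 scale. Levels of this list were higher in Foxp3-only than in Cd8-only barcodes, 2859.9 against 918 CPM summed in female tumours and 2652.8 against 901 in the male library.

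Chemokine receptors and costimulatory receptors were also mostly below pair sums. The medians of the 9 measured chemokine receptors were -0.54 and -0.36, with Cxcr3, a receptor of interferon-induced chemokines, at 43.9 CPM against 81.6 (-0.90) and 47.7 against 97.2 (-1.03). Ccr2, a receptor of inflammatory sites, was lower by 0.94 and 0.53. All 9 measured costimulatory TNF receptor family and related genes lay below 0 in both, with medians of -0.27 and -0.33, and Tnfrsf4 (OX40) had 937 against 1232.3 and 911 against 1299.7. Inhibitory receptors had medians of 0.03 and 0.13 over 12 genes. Of these, Ctla4 and Tigit, abundant in Treg cells, were lower (-0.72 and -0.39 in female tumours, -0.29 and -0.40 in male tumours).

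Most of the other T cell lists lay nearer to pair sums. T cell receptor activation genes had medians of -0.25 in both libraries over 17 genes, with the immediate early gene Nr4a1 at 173 against 257 CPM (-0.57) and 232 against 399 (-0.78). Dissociation stress genes had medians of -0.07 and -0.25 over 21 genes, glycolysis and hypoxia genes 0.07 and 0.09 over 16, and T helper 1 genes -0.08 and -0.03 over 10. Ifng, the cytokine of that response, had 180 against 124 in female tumours (0.54) and 194 against 173 in the male library (0.17). T helper 17 and follicular helper lists had only 2 measured genes each, Maf and Ahr with medians of -0.49 and -0.33, and Sh2d1a and Bcl6 with -0.22 and -0.11.

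Foxp3/Cd8 barcodes differed among themselves along depth. The median place of genes that are high in Foxp3-only barcodes was 0.52 under 10000 UMIs, 0.43 from 10000, 0.25 from 20000 and 0.13 from 40000 UMIs in the female library, and 0.43, 0.44, 0.30 and 0.14 in the male library. Cd4 had 90.5 CPM in the shallowest and 34.4 in the deepest range of the female library, and 71.6 and 37.6 in the male library. Nkg7 was not lower at depth, with 1688.6 and 2008.8 in the shallowest and deepest range in female tumours and 1078.7 and 2018.2 in the male library. The shallowest ranges held only 23 and 28 barcodes.

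The amounts of Foxp3 and Cd8 also marked differences in other genes. Barcodes with at least 5 Foxp3 UMIs had 151 Ccr8 CPM against 79.4 with exactly 1 in the female library, and 158 against 67.1 in the male library, and Klrg1 had 147 against 48.2 and 139 against 37.4. Barcodes with exactly 1 Foxp3 UMI had a median place of 0.06 and 0.08 on Foxp3-high genes, near Cd8-only barcodes. The 31 female and 45 male barcodes with 2 to 9 Cd8 UMIs lay nearer to Foxp3-only barcodes, at 0.61 and 0.52. Their Cd4 was 119 and 122 CPM against 42.5 and 46.5 in the others. They were also shallow, with medians of 10391 and 10824 UMIs against 36221.5 and 37888. Both splits use genes of the rule, and the part of depth in these differences was not tested.

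Barcodes with at most 2 Trbv segments lay somewhat nearer to Foxp3-only barcodes than those with more. The place on Foxp3-high genes was 0.28 with at most 1 segment, 0.26 with 2 and 0.17 with 3 or more in female tumours, and 0.30, 0.35 and 0.17 in male tumours. Barcodes with at most 1 segment were shallow, with medians of 14240 and 13691 UMIs, against 48065 and 48084 with 3 or more. Under 10000 UMIs, 19 female and 20 male ones remained, with 115 and 69 Cd4, 527 and 352 Cd8a and 1444.7 and 1158.9 Nkg7 CPM.

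Few genes differed between female and male Foxp3/Cd8 barcodes. Over 7964 measured genes, leaving out genes specific to 1 sex, 44 (0.552%) were at least 1.5-fold above the male level with an interval bound at least 25% above it, and 63 (0.791%) were as far below it. The median log2 of female over male was 0.01. Penk was lower in the female library (-0.56, -0.63 to -0.49), as it was in Foxp3-only (-1.22) and Cd8-only barcodes (-1.16). Areg was lower by 0.24 on the log2 scale, while Ccr8 differed by 0.01 (-0.08 to 0.10). Klf2 was lower in the female library in Foxp3/Cd8 (-1.10), Foxp3-only (-0.78) and Cd8-only barcodes (-1.33).

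Several of the genes furthest apart between the sexes had few UMIs or rested on few barcodes. Highest in the female library were Il5 (246 against 0 UMIs), Il13 (4.26), the interleukin 1 antagonist Il1rn (1.55), Ccnb1ip1 (1.13) and Cdk5rap1 (1.12). Cdk5rap1 was spread widely, with 219 UMIs over 135 female and 122 over 95 male barcodes. Lowest were Il1b (-3.09), Prss2 (-2.84), Gzmg (-2.57), Igfbp4 (-2.13) and Klra3 (-1.96). Of the 31 measured cytotoxic genes 6 were lower and 0 higher in the female library, and of 10 type 2 genes 4 were higher and 1 lower. Il5 and Il13 are among those 4, and 1 female barcode held nearly all their UMIs. With 1 library a sex, sex and library cannot be told apart.

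Markers of other cell types, over 13 lists, ranged widely. The 9 fibroblast genes had the highest sum, 1128.4 CPM in female Foxp3/Cd8 barcodes against 1004.8 in pair sums and 1099.2 against 939 in the male library. Thy1, a surface protein that T cells carry too, gave 1099.1 and 1054.4 of it. Sparc, of the same list, was higher in both (0.83 and 0.91), and 1 barcode held 75.9% of its UMIs in female tumours and 30% in male tumours. MHC class II genes, on which the rule set a limit, summed to 191 against 204 and 242 against 276.

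Myeloid and natural killer genes did not go one way. The 15 myeloid genes summed to 169 CPM in female Foxp3/Cd8 barcodes, against 300 in pair sums, 613 in Foxp3-only and 129 in Cd8-only barcodes, and to 193 in the male library against 204, 325 and 133. Of the 7 measured ones 0 were at least 1.5-fold higher and 4 lower in female tumours, but 3 higher and 1 lower in male tumours, with medians of -0.70 and 0.30. Of 3 measured natural killer genes 0 and 2 were higher, with medians of 0.22 and 1.04. Fcer1g, a receptor signalling chain on both lists, had 32 against 27.6 and 31.1 against 15.1. Lyz2, a lysozyme gene of myeloid cells, had 1.96 against 69.5 in the female pair sums and 3.83 against 1.76 in the male ones. The female pair value came mostly from Foxp3-only barcodes, with 195 CPM (305 UMIs) there and 0.938 in Cd8-only barcodes. Male Foxp3-only barcodes had 0.481 CPM (1 UMI), and the source of the female Lyz2 was not tested.

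Among the remaining lists, type 2 innate lymphoid genes, which share Il5 and Il13 with the tissue repair list, had medians of 0.58 and 0.09 over 6 measured genes. Il5 and Il13 were measured only through 1 female barcode. The dendritic, B and plasma, gamma-delta T, epithelial or tumour, endothelial and neutrophil lists each summed to between 3.84 and 53.3 CPM in Foxp3/Cd8 barcodes. Mast cell and basophil genes summed to 0.0725 and 0.898, and erythroid and platelet genes to 0.362 and 1.86. The part of these markers in the results was not tested.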

How the data were processed

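The data were UMI count matrices of 32285 genes, deposited by the authors for 1 female and 1 male library made with a 10x GEM-X 5' kit from, per the labels, 10000 to 20000 sorted cells each. Per the file headers Cell Ranger 7.0.1 made the counts. The submitters' processing notes name GRCm38 and Seurat 5, and the annotation release is not given in the sources used here. Gene positions are those of GENCODE M21, which held 99.8% of the gene IDs.

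The Foxp3/Cd8 barcodes and the gene lists were chosen with earlier results of these data known. No doublet caller was run and no barcode was removed as a doublet. Pair sums are exact means over all pairs of 1 Foxp3-only and 1 Cd8-only barcode of a library, not draws. Measured genes had 10 CPM or more in Foxp3/Cd8 barcodes or pair sums of 1 library and 20 UMIs or more in Foxp3/Cd8 barcodes of both libraries together, leaving out the genes of the rule. Intervals of shares are exact binomial, and those of log2 ratios are exact intervals of a ratio of Poisson counts, with an effective count (squared mean over variance) for pair sums and counts of 0 set to a floor of 3, all at 95%. Those of log2 ratios were tested on simulated Poisson counts, the model they assume. That could not check genes whose UMIs gather in few barcodes, for which these intervals are too narrow. All intervals cover counting error only. Thinned shares are exact means over draws of 2977 UMIs, the 10th percentile of kept barcodes.

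Named genes were Foxp3, Cd8a, Cd8b1, Ccr8, Penk, Cd4, Areg and Il5, up to 4 genes a list and the 12 highest and 12 lowest genes with the same sign in both libraries, and the 5 highest and 5 lowest ratios of female over male. Cd3e, Nkg7, Gzmb, Ikzf2 and Lyz2 came from the marker lists, and the genes outside both kinds and Il4 were named after their values were seen. Alternatives were a stricter barcode filter, a Foxp3 minimum of 2, deeper or non-cycling barcodes, equal weights, TMM factors (edgeR 4.0.16), no filter on low counts, other segment minimums, sums with 2 Cd8-only barcodes and leaving out top barcodes. Python 3.11.15, numpy 2.4.6, scipy 1.17.1, pandas 2.3.3 and R 4.3.3 were used.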

Additional observations from a re-analysis of the deposited data

Results flagged for a closer look

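Penk, Areg, Ccnb1ip1, Il1b and Gzmg lay on opposite sides of pair sums in the libraries, with intervals that did not reach 0. The intervals take each UMI as an independent draw, so they are too narrow where few barcodes hold many of the UMIs. Each library is 1 sample, and the difference between them was not tested. Penk had a log2 of Foxp3/Cd8 barcodes over pair sums of 0.25 (female library) against -0.41 (male library). Areg had 0.13 and -0.47. Without dividing barcodes female Areg was 0.07 (-0.07 to 0.21), and against sums with 2 Cd8-only barcodes male Areg turned to 0.10. In the other settings Areg kept its sign in each library. Ccnb1ip1, a gene of meiotic recombination, had 0.55 and -0.94, with 166 and 92 UMIs in Foxp3/Cd8 barcodes. Il1b had -2.78 and 0.33, on 22 and 227 UMIs, of which 1 barcode held 50% (female) and 17.6% (male). Gzmg had -0.67 and 2.26, with 80% and 61.2% of its UMIs in 1 barcode.

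For Penk the values of both kinds of single barcode stood apart between the libraries as well. Foxp3-only barcodes had 284 CPM (female) and 661 CPM (male), and Cd8-only barcodes 86.7 and 194, on 24 and 56 Foxp3-only barcodes with Penk. The part of these few barcodes in the difference was not tested.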

How the results depend on the processing

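No paired analysis was possible because there was 1 library a sex. The leading results were shares, median UMIs, places, gene counts and the medians of the Treg identity, cytotoxic, tissue repair and cell cycle lists. Of 120 alternatives for these, 82 kept them within an interval or, for gene counts, within 1.5 times, and 38 moved them further. For list medians that interval ran from the median lower to the median upper bound of the single genes. It is not a counting error of the median, so a value within it can still have moved. Of 1933 for single genes and the medians of other T cell lists, 1391 stayed as near, 531 moved and 11 turned round. Only a value past 1.5-fold could count as turned round. Smaller values that changed sign, such as female Penk and male Areg, were counted as moved or as near, so 11 is not the number of all sign changes.

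From 1000 genes up and with mitochondrial UMIs limited to 5%, the male share of Foxp3/Cd8 barcodes was 13%, and thinned to 2977 UMIs the shares were 2.99% (female) and 3.96% (male). With at least 2 Foxp3 UMIs they were 8.07% and 9.89%, the places 0.22 and 0.21, the male share with several Trbv segments 87.9%, and the female tissue repair median -0.21. That minimum removes the 1 barcode rich in Il5 and Il13 from the female library. It leaves 0 Il5 UMIs (-2.14 at the floor of 3 counts, upper bound -1.79) and 2 Il13 UMIs (-1.72, -4.83 to 0.26). The Il5 level of the pair sums also rests on few barcodes, as 1 held 85% of the female Cd8-only Il5 UMIs. Counting segments from 1 UMI gave 89.5% and 92.5%, and from 3 UMIs 79.1% in the male library.

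With only single barcodes at or above their median UMIs in the sums, 0 genes were higher and 32 lower in both libraries, the female tissue repair median was 0.03, and cell cycle medians were 0.05 and 0.19. Without barcodes with 2 UMIs of Mki67 and Top2a, 40 genes were lower, and the male medians were -0.18 for Treg identity, 0.37 for CD8 and cytotoxic, -0.20 for tissue repair (female -0.01) and 0.06 for cell cycle genes. That setting removes barcodes by the gene itself for Mki67, which was -0.74 and -0.67. Sparc was -1.16 (3 UMIs, -3.60 to 0.67) and -0.71, female Il13 -0.14 (1 UMI, -5.58 to 2.67), male Hist1h2ao -0.94 and male Tpx2 -1.06, and the cause was not tested.

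Equal weight per barcode gave 113 higher genes, -0.14 for tissue repair and 0.73 for cell cycle genes in the male library. TMM factors gave 49 higher genes, shifting all genes by 0.046 and 0.055. Without the filter on low counts, which adds genes, 439 were higher and 563 lower. Against sums with 2 Cd8-only barcodes, added after seeing the data, 2 genes were higher and 40 lower, and medians were 0.00 and 0.03 for Treg identity, -0.13 and 0.05 for cytotoxic, 0.31 and -0.03 for tissue repair genes and 0.35 for male cell cycle genes. Without the top barcode, also added later, female Il13 was -0.11 (3 UMIs, -2.58 to 1.78) and Sparc -0.50. The cause of these moves was not tested. Low counts of Foxp3, with a median of 4 UMIs, limit how sharply the barcodes can be chosen.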
